A study of Mus musculus with 14 samples.

Results

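The 38 genes described here carry out or control fatty acid oxidation in mouse liver and include well-known targets of the nuclear receptor PPAR-alpha. They were taken by symbol from a list of names, and all 38 were found among the 54532 genes of the count table. The list holds 2 regulators, 5 genes of the carnitine shuttle, 10 of the mitochondrial oxidation spiral, 3 of electron transfer, 6 of peroxisomal oxidation, 2 of omega-oxidation, 3 acyl-CoA thioesterases, 3 genes of ketone bodies and fuel choice, and 4 of lipid uptake, binding and secretion. All 38 passed the filter on low counts, which left 17874 genes for testing.

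PPAR-alpha, encoded by Ppara, is a transcription factor that fatty acids activate and that binds DNA together with a retinoid X receptor. In liver it switches on genes that carry fatty acids into mitochondria, shorten them there and in peroxisomes, and oxidise their far ends in the endoplasmic reticulum, above all during fasting. Feeding and the daily clock are both known to move many of its targets over the day.

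RNA was measured by paired-end sequencing in livers of C57BL/6J mice aged 52 weeks. Knockout animals were Abcb11-/-, and Abcb11 encodes the bile salt export pump of hepatocytes. The 14 libraries were tumour tissue of knockout females (n = 3), non-tumour liver of knockout females (n = 3), liver of wild-type females (n = 2, numbered 2 and 3), liver of knockout males (n = 3) and liver of wild-type males (n = 3). Each group had 3 mice by the design text, and no wild-type female numbered 1 is analysed here. The sources used here do not give the deleted exons, the tumour type, or the time of day and feeding state at death. Wild-type females serve as controls in 2 of the knockout comparisons, and every comparison below shares at least 1 group with another, so the comparisons are not independent of each other.

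Library totals lay between 14745140 and 19480538 counts. Levels are given as CPM, counts scaled to the size of the library, after TMM scaling. Abcb11 stood at 34.3, 23.2 and 18.0 CPM in tumours and at 21.1, 35.9 and 17.9 CPM in non-tumour liver of knockout females, against 270.2 and 488.5 CPM in wild-type females. In males it stood at 76.5, 62.1 and 103.6 CPM in knockout liver, against 307, 322 and 298 CPM in wild-type liver. The knockout libraries were thus the low ones in both sexes, as labelled, but the fall was smaller in males. The log2 fold change over wild type was −3.93 ± 0.38 in non-tumour females (edgeR adjusted p = 0.000273) and −1.94 ± 0.34 in males (edgeR adjusted p = 0.00127). Hepatocyte markers (9 genes) summed to 32837 CPM or more in every library, and no library pair held identical values. Fewer cells of a type and less RNA per cell cannot be told apart in such bulk tissue.

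Some library measures moved with the groups and are given before the results they touch. A clock score, taken over 8 evening and 4 morning genes as the difference of their mean log2 CPM, was 3.46, 2.70 and 3.15 in knockout males, against −1.85, −1.42 and −1.52 in wild-type males. The score of the 3 knockout males did not overlap that of the 3 wild-type males, so genotype and clock phase cannot be told apart in males. In females the score was 0.04, 2.61 and 4.26 in tumours and −0.29, 3.12 and 4.86 in non-tumour liver, against 1.73 and 1.27 in wild type, and there the groups overlapped. Lymphocyte markers summed to 406.5 CPM in wild-type male 3, against 5.50 and 4.72 CPM in wild-type males 1 and 2. Mitochondrially encoded genes took 15.7% of counts in knockout male 3 and 42.2% in wild-type male 3, the lowest and the highest of the 14 libraries.

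**Figure D1:**
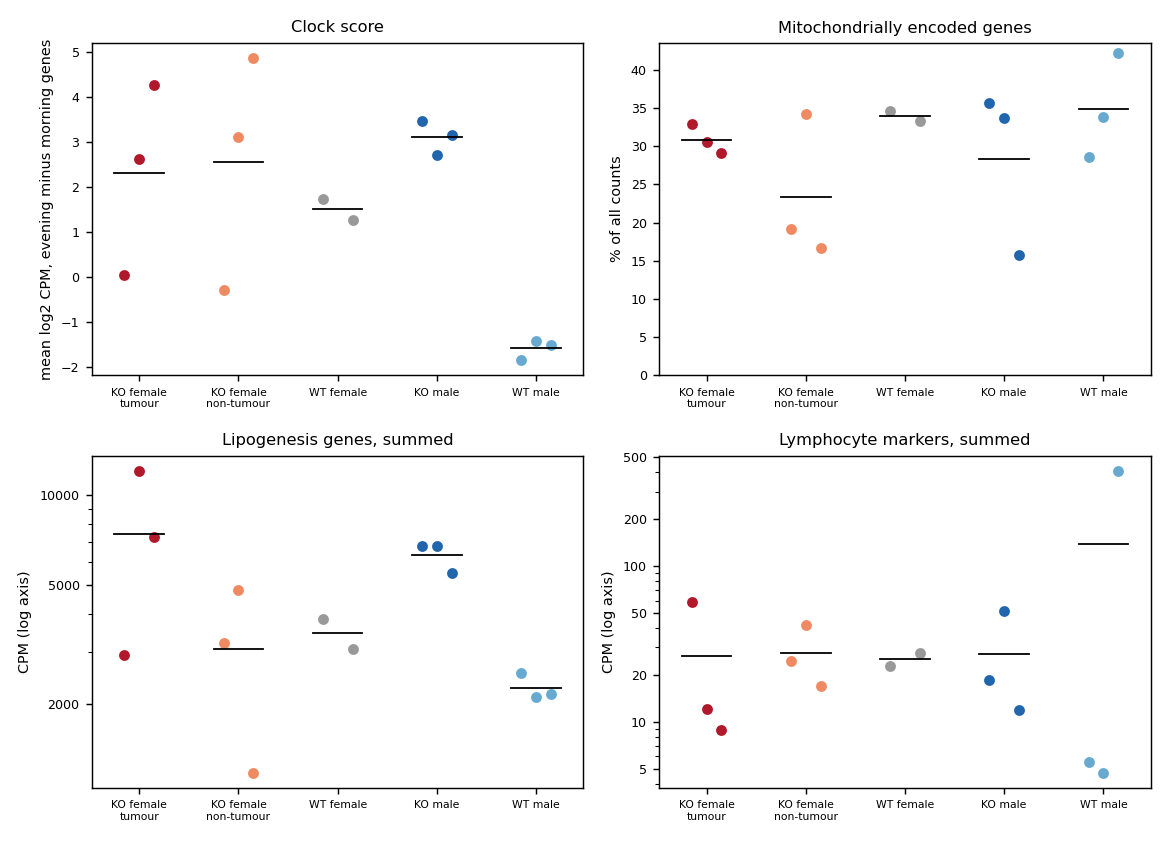
Library measures in each of the 14 libraries, by group (dots, 1 per library; bars, group means): clock score in log2 CPM units, percent of counts from mitochondrially encoded genes, and summed CPM of lipogenesis genes and of lymphocyte markers on log axes. The clock score lies between 2.70 and 3.46 in knockout males and between −1.85 and −1.42 in wild-type males.

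Promoter sequences are shown for Fabp1, the most abundant member per length, and for the 3 thioesterase genes Acot1, Acot2 and Acot4, which lie next to each other and behaved differently. PPAR-alpha with its partner is known to bind a pair of AGGTCA-like copies with 1 base between them. RefSeq promoter windows (GRCm38.p6, 250 bases before to 50 after the start) were matched for 31 of the members, and both strands were searched. The exact pair AGGTCANAGGTCA was in none of the 32 member windows and in 0.0396% of 32851 windows. The looser pair AGGNCANAGGNCA was in 1 member window, that of Fabp1, and in 0.381% of all windows. The single copy AGGTCA, which overlaps these pairs, was in 6 member windows (Acadm, Acadvl, Acot4, Cd36, Cpt1a and Fabp1) and in 16.3% of all windows. A match here is a run of letters and not a shown binding site. Each sequence below is the plus strand up to the base before the gene's start in the count table, with matches in capitals, AGGNCANAGGNCA for Fabp1 and AGGTCA for the others, all read on the minus strand.
Fabp1 promoter, chr6:71199629-71199826: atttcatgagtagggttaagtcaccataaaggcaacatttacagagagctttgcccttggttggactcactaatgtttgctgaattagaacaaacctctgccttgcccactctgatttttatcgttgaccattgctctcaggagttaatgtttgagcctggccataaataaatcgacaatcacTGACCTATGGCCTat
Acot1 promoter, chr12:84009252-84009489: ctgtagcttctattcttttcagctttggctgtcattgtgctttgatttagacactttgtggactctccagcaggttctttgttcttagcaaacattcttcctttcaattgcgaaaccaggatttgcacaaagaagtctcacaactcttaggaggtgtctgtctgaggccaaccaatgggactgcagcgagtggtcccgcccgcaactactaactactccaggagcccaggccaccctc
Acot2 promoter, chr12:83987611-83987860: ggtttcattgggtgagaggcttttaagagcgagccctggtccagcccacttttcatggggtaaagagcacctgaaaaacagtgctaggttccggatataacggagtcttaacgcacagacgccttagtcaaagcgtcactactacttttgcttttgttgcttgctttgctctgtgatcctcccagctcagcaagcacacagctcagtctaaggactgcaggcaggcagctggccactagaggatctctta
Acot4 promoter, chr12:84038129-84038378: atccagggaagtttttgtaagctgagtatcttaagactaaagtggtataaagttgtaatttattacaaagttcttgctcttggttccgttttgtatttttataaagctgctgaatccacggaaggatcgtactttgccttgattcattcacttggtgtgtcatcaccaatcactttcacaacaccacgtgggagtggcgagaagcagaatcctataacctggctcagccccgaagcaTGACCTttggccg

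The Fabp1 match, TGACCTATGGCCT, lies at chr6:71199812-71199824, and its first base is 67 bases before the RefSeq start. The Acot4 match lies at chr12:84038366-84038371, and neither the Acot1 nor the Acot2 window holds a copy. Windows of Angptl4, Crat, Decr1, Cyp4a14, Acaa2, Vnn1 and Cyp4a10 were not used here.

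Some members are close copies of each other, which bears on how far their counts can be told apart. The coding sequences of Acaa1a and Acaa1b were identical at 96.5% of aligned bases, and those of Acot1 and Acot2 at 95.5%. Acot4 matched Acot1 at 76.6% and Acot2 at 76.5%, and Cyp4a10 matched Cyp4a14 at 76.8%. Stretches of 120 coding bases (GENCODE M21 transcripts, sense strand) show the scale of this likeness, with the bases that differ within each pair in capitals: 4 for the Acaa1 pair and 10 for the Acot pair.
Acaa1a, coding bases 1 to 120: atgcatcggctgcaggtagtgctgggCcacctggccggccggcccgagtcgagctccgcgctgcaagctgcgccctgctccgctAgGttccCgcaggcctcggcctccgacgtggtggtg
Acaa1b, coding bases 1 to 120: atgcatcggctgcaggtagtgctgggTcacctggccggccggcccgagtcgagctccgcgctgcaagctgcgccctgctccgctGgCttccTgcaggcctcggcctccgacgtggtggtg
Acot1, coding bases 5 to 124: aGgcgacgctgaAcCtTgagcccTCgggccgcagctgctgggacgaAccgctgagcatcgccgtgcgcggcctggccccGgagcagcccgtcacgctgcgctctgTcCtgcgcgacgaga
Acot2, coding bases 128 to 247: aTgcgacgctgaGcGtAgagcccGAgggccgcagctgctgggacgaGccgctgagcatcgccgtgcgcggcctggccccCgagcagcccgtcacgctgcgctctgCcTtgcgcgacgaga

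How the counting treated reads that fit both copies is not given in the sources used here, so the split between Acaa1a and Acaa1b and between Acot1 and Acot2 is uncertain. The strand setting of the counting is likewise not given, and 17 of the 38 members overlap another annotated gene, so reads of the neighbour could be included: Ppargc1a, Crat, Crot, Acadl, Acadvl, Hadha, Hadhb, Decr1, Etfb, Etfdh, Ehhadh, Acaa1a, Acaa1b, Eci2, Pex11a, Acot4 and Bdh1.

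In non-tumour liver of knockout females, 4 of the 38 members fell and none rose relative to wild-type females. They were Ppara, the receptor itself, Cyp4a14, a fatty acid omega-hydroxylase, Acot4, a peroxisomal thioesterase, and Eci2, an isomerase that prepares unsaturated fatty acids for oxidation. Members were called at an adjusted p under 0.05 in edgeR's quasi-likelihood test with Benjamini-Hochberg adjustment over all 17874 genes. The 4 members are 10.5% of the list, and of all genes tested 4.16% were called, 2.26% lower and 1.90% higher. The median log2 fold change of the members was −0.37, with 28 of 38 below 0, beside a median of −0.00 over all genes. In 12 members every non-tumour library lay below both wild-type libraries and in 1, Cd36, above them, where 26.5% and 23.2% of all genes did so. Without wild-type female 3 the count was 1 (Acot4), without non-tumour 1 it was 2 (Ppara and Acot4), and without wild-type female 2 it was 3, Cyp4a14, Acot4 and Cd36, the last of them higher.

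In knockout males 12 members fell and 3 rose relative to wild-type males. The falls included the omega-hydroxylases Cyp4a14 and Cyp4a10, the thioesterases Acot1 and Acot2, and Ehhadh, the bifunctional enzyme of peroxisomal oxidation. The rises were those of Ppargc1a, a coactivator of PPAR-alpha, Cpt1a, the entry step of the carnitine shuttle, and Decr2, a peroxisomal reductase. The 15 members are 39.5% of the list, and of all genes tested 20.6% were called, 14.3% higher and 6.32% lower. The members' median log2 fold change was −0.56, beside 0.11 over all genes. All 15 called members showed no overlap between the groups, and in all 16 members lay below and 6 above the wild-type range, where 12.2% and 23.1% of all genes did so. With the clock score as a covariate, an alternative added after seeing the data, the calls over all genes went from 3688 to 372. Of the members' 15 calls 2 were kept, those of Cyp4a14 and Acot2, and no called member changed sign. Some of the log2 fold changes whose call was lost stayed about as large, such as −3.04 for Ehhadh, −3.71 for Acot1, 2.43 for Ppargc1a, −2.04 for Cyp4a10, −1.82 for Pex11a and −1.10 for Eci2. Others were smaller, such as −0.48 for Etfb, −0.72 for Cpt2 and −0.78 for Acadvl.

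**Figure D2:**
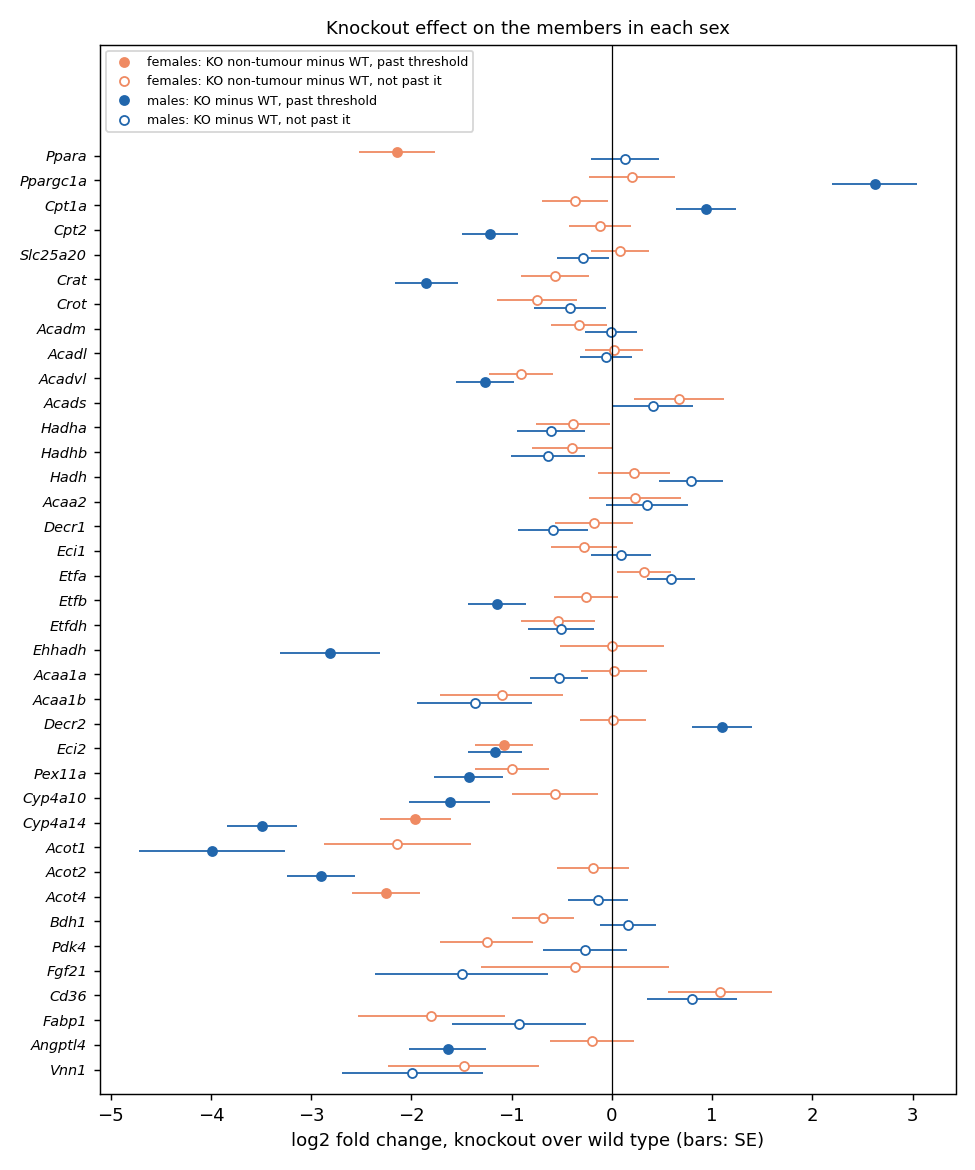
Log2 fold change of each member, knockout over wild type, in females (non-tumour liver, orange) and males (blue), with bars of 1 SE and filled dots past the threshold. Ppara and Acot4 are filled in females alone, at −2.14 and −2.25, and Ehhadh and Acot2 in males alone, at −2.81 and −2.90.

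Tumours were set against wild-type females as well. There 8 members fell and none rose: Ppara, Cyp4a14, Cyp4a10, Acot4, Acot1, Eci2, Acadvl, the very-long-chain acyl-CoA dehydrogenase, and Pdk4, a kinase that turns off pyruvate oxidation. These are 21.1% of the list, and of all genes 9.61% were called, 5.67% lower and 3.94% higher. The members' median was −0.26, beside 0.03 over all genes, and 16 members lay below and 2 (Acads and Fgf21) above the wild-type libraries, where 27.6% and 24.8% of all genes did. Without tumour 2, without tumour 3 and without wild-type female 3 the count was 3 each time (Ppara, Cyp4a14 and Acot4), and without wild-type female 2 it was 4, these and Cd36, which was higher.

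**Figure D3:**
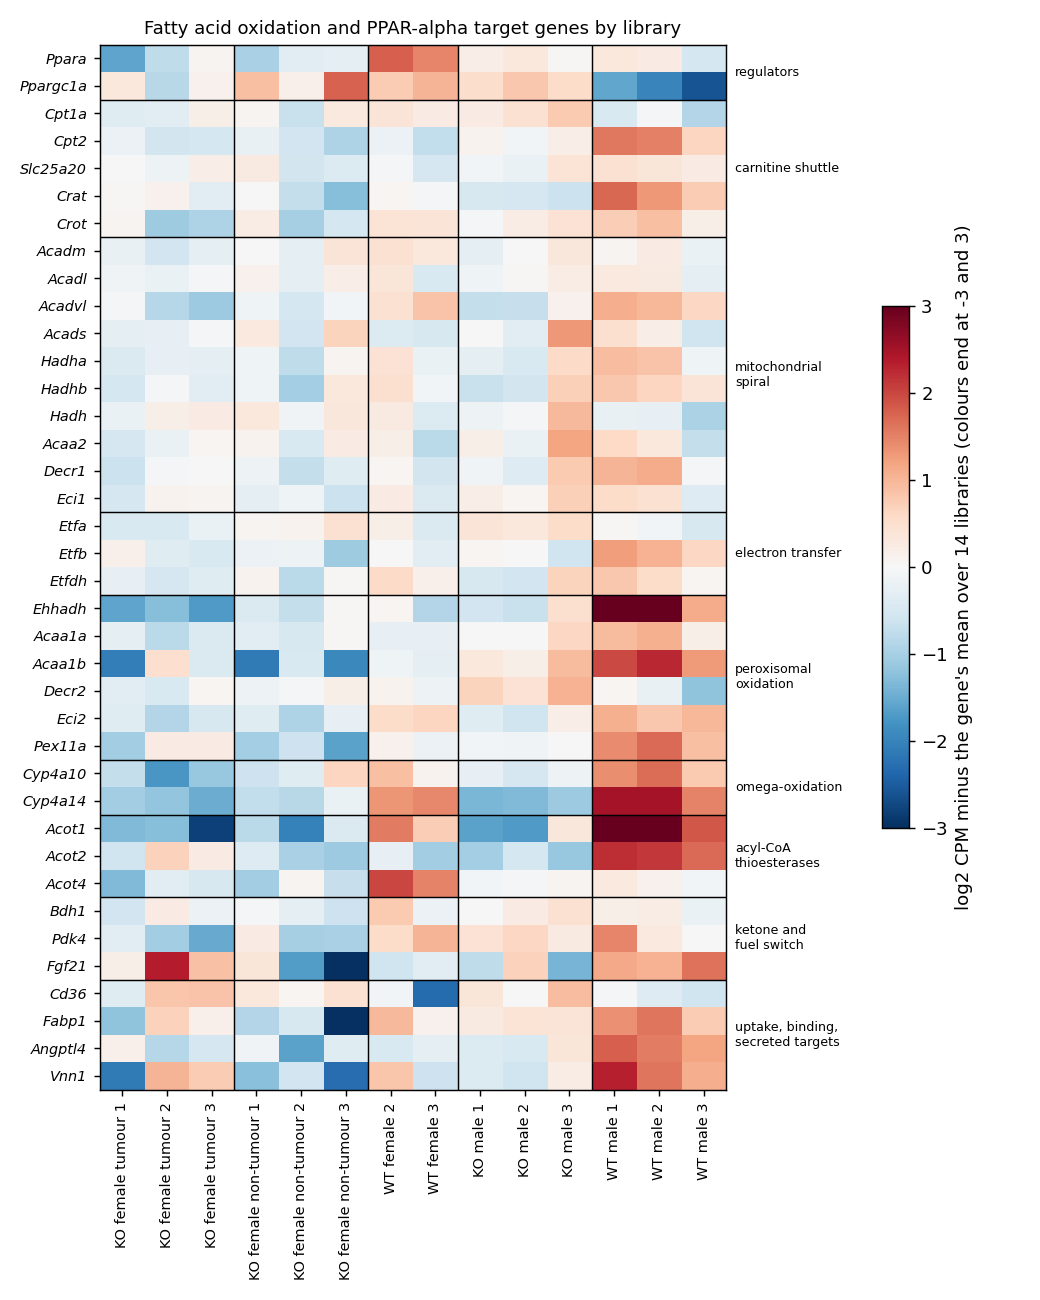
Level of each of the 38 members (rows, grouped by role) in each of the 14 libraries (columns, by group), as log2 CPM minus the gene's mean over all libraries. Red is above and blue below that mean, and colours end at −3 and 3. Wild-type males 1 and 2 are red for most peroxisomal, omega-oxidation and thioesterase genes, while Ppara is reddest in the 2 wild-type females.

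Ppara and Ppargc1a are the regulators of the list. Ppara (ENSMUSG00000022383, chr15:85734983-85802819, plus strand, GRCm38) stood at 7.85, 14.01 and 25.1 CPM in tumours and at 12.0, 18.6 and 19.53 CPM in non-tumour liver of knockout females, against 82.1 and 65.4 CPM in wild-type females. All 6 knockout female libraries lay below both wild-type ones. The log2 fold change was −2.23 ± 0.38 for tumours (edgeR adjusted p = 0.00342) and −2.14 ± 0.38 for non-tumour liver (edgeR adjusted p = 0.0118), both against wild-type females. Each SE here and below was derived from the F statistic of the test. In males Ppara stood at 27.1, 29.3 and 24.1 CPM in knockout liver, against 29.2, 28.1 and 16.4 CPM in wild-type liver, and these groups overlapped. Between the wild types Ppara was lower in males, with a log2 fold change of −1.59 ± 0.37 (edgeR adjusted p = 0.00807). The non-tumour call was lost without wild-type female 2 and without wild-type female 3, and the tumour call was kept under all 14 alternatives.

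Ppargc1a (chr5:51454250-51567726, minus strand) encodes PGC-1alpha, which drives mitochondrial and fasting genes together with PPAR-alpha. It stood at 11.3, 13.8 and 11.4 CPM in knockout males, against 2.65, 2.004 and 1.31 CPM in wild-type males, where it had only 41, 28 and 26 counts. The knockout males lay in the range of the female groups, and the wild-type males were the low libraries of the series. The log2 fold change was 2.62 ± 0.42 in knockout over wild-type males (edgeR adjusted p = 0.000857) and −2.88 ± 0.45 in wild-type males over wild-type females (edgeR adjusted p = 0.000618). In females it stood at 9.83, 4.45 and 8.52 CPM in tumours and at 14.74, 8.78 and 26.8 CPM in non-tumour liver, against 13.2 and 15.9 CPM in wild type. Tumours and non-tumour liver overlapped, and their log2 fold change of −1.15 ± 0.39 was among the members' 3 smallest unadjusted p (0.0104) without passing adjustment (edgeR adjusted p = 0.665).

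The carnitine shuttle, which carries acyl chains across the mitochondrial membranes, was split in males. Cpt1a, the outer membrane transferase, stood at 235.5, 273.3 and 343.3 CPM in knockout males, against 143.6, 194.5 and 107.0 CPM in wild-type males (log2 fold change 0.94 ± 0.30, edgeR adjusted p = 0.0385). The Cpt1a call was lost in 13 of 15 alternatives and kept in DESeq2 and without wild-type male 2, with log2 fold changes of 0.63 to 1.09 over all 15. Cpt2, the inner membrane transferase, stood at 136.8, 120.1 and 146.3 CPM in knockout males, against 379.6, 361.4 and 198.4 CPM in wild-type males (−1.22 ± 0.28, edgeR adjusted p = 0.00787). Wild-type male 3 lay between the other wild-type males and the knockouts.

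Crat, which moves short acyl groups onto carnitine, stood at 72.8, 70.7 and 65.0 CPM in knockout males, against 332.3, 250.6 and 170.8 CPM in wild-type males, without overlap. Its log2 fold change was −1.85 ± 0.31 (edgeR adjusted p = 0.00111). Cpt2 and Crat were also higher in wild-type males than in wild-type females, by 1.72 ± 0.33 (edgeR adjusted p = 0.00249) and 1.31 ± 0.35 (edgeR adjusted p = 0.0161). In females none of the 5 shuttle genes was called, with log2 fold changes of −0.75 to 0.08 in non-tumour liver and −0.93 to 0.28 in tumours, each over wild type. Slc25a20, the carnitine carrier, and Crot, the peroxisomal carnitine octanoyltransferase, were called in no comparison.

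The mitochondrial spiral, the repeated cycle that shortens acyl chains, has 10 genes in the list. Acadvl (chr11:70010183-70015411, minus strand), whose product takes the first step for long chains, was the 1 member of this group called. It stood at 33.5, 19.50 and 16.3 CPM in tumours and 31.9, 24.3 and 33.2 CPM in non-tumour liver, against 48.2 and 63.6 CPM in wild-type females. In males it stood at 21.4, 21.9 and 38.5 CPM in knockout liver, against 74.1, 69.5 and 53.8 CPM in wild-type liver. Every knockout library lay below every wild-type library of its sex. The log2 fold change was −1.28 ± 0.32 in tumours (edgeR adjusted p = 0.0230), −0.91 ± 0.32 in non-tumour liver (edgeR adjusted p = 0.116) and −1.27 ± 0.29 in males (edgeR adjusted p = 0.00777).

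The dehydrogenases of medium (Acadm), long (Acadl) and short chains (Acads), the trifunctional protein subunits Hadha and Hadhb, the hydroxyacyl dehydrogenase Hadh, the thiolase Acaa2, the reductase Decr1 and the isomerase Eci1 were called in no comparison. Over the 10 genes log2 fold changes ran from −0.91 to 0.67 in non-tumour liver and −1.28 to 0.25 in tumours over wild-type females, and from −1.27 to 0.79 in males. Their summed level was 1295.5, 1245.3 and 2329.3 CPM in knockout males, against 1925.6, 1832.1 and 1093.1 CPM in wild-type males, so the groups overlapped. Knockout male 3, with the smallest mitochondrially encoded share, was the highest knockout library, and wild-type male 3, with the largest, was the lowest of all 6. The part of that share in these values was not tested. Without mitochondrially encoded genes in the scaling, an alternative added after seeing the data, Acadvl kept its call in males.

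Electron transfer flavoprotein hands electrons from the dehydrogenases to the respiratory chain. Its beta subunit Etfb stood at 108.1, 104.3 and 69.0 CPM in knockout males, against 248.3, 215.7 and 160.3 CPM in wild-type males, without overlap. Etfb gave −1.15 ± 0.29 (edgeR adjusted p = 0.0130) and lost the call without knockout male 3. The alpha subunit Etfa stood at 275.1, 261.6 and 308.6 CPM in knockout males, against 215.3, 197.0 and 150.2 CPM in wild-type males, so the subunits lay in opposite directions (0.59 ± 0.24 for Etfa, edgeR adjusted p = 0.0992). Etfb was also higher in wild-type males than in wild-type females (1.15 ± 0.34, edgeR adjusted p = 0.0241). Etfdh, the next carrier, was called in no comparison.

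Peroxisomal oxidation shortens very long chains, and its genes are classic PPAR-alpha targets in rodents. Ehhadh (ENSMUSG00000022853, chr16:21761287-21787807, minus strand) stood at 145.1, 134.4 and 302.1 CPM in knockout males, against 1870.3, 1748.8 and 463.7 CPM in wild-type males. Wild-type males 1 and 2 were far above all other libraries of the series, and wild-type male 3 still lay above every knockout male. Ehhadh gave a log2 fold change of −2.81 ± 0.50 (edgeR adjusted p = 0.00144). In females Ehhadh stood at 71.4, 89.0 and 66.3 CPM in tumours and 159.1, 131.2 and 221.7 CPM in non-tumour liver, against 225.1 and 116.8 CPM in wild type. Tumours were the lowest group without overlap, although neither tumour comparison was called (−1.18 ± 0.47 over non-tumour liver, edgeR adjusted p = 0.672). Wild-type males lay above wild-type females by 2.99 ± 0.59 (edgeR adjusted p = 0.00280).

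Eci2 (chr13:34977748-35027096, minus strand) and Cyp4a14, given with omega-oxidation below, were called in all 3 comparisons of knockout with wild type. Eci2 moves double bonds so that unsaturated chains can be oxidised. Eci2 stood at 122.8, 86.1 and 112.9 CPM in tumours and 123.9, 83.5 and 133.3 CPM in non-tumour liver, against 230.9 and 248.4 CPM in wild-type females. Male livers had 123.3, 104.4 and 180.5 CPM in knockout liver, against 329.8, 275.4 and 315.7 CPM in wild-type liver. All 9 knockout libraries lay below all 5 wild-type libraries. The log2 fold changes were −1.16 ± 0.29 in tumours (edgeR adjusted p = 0.0224), −1.08 ± 0.29 in non-tumour liver (edgeR adjusted p = 0.0485) and −1.17 ± 0.27 in males (edgeR adjusted p = 0.00668). The non-tumour call was lost in 9 of 14 alternatives, including each library left out in turn.

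Pex11a, which takes part in the division of peroxisomes, stood at 146.3, 143.2 and 155.1 CPM in knockout males, against 409.3, 498.1 and 286.8 CPM in wild-type males (−1.43 ± 0.34, edgeR adjusted p = 0.00969). It lay higher in wild-type males than in wild-type females, at 166.9 and 135.8 CPM, by 1.39 ± 0.40 (edgeR adjusted p = 0.0206). Decr2, which reduces double bonds in peroxisomes, stood at 247.6, 208.0 and 317.3 CPM in knockout males, against 161.1, 132.8 and 67.4 CPM in wild-type males (1.10 ± 0.30, edgeR adjusted p = 0.0180). Its direction was opposite to that of Ehhadh, Eci2 and Pex11a, and its call was lost in 5 of 15 alternatives, without knockout male 3, without wild-type male 2, without wild-type male 3, in the fit of the male groups alone and with the clock covariate.

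The thiolases Acaa1a and Acaa1b were called between the wild-type sexes alone. Acaa1b stood at 4987.0, 6055.8 and 3055.9 CPM in wild-type males, against 1166.9 and 1037.5 CPM in wild-type females (2.09 ± 0.68, edgeR adjusted p = 0.0368). Acaa1a stood at 524.2, 565.5 and 304.1 CPM in wild-type males, against 228.1 and 227.4 CPM in wild-type females (1.03 ± 0.34, edgeR adjusted p = 0.0390). No library of the sexes overlapped in either gene, and the split between these copies is uncertain, as above. Acaa1b stood at 1573.6, 1438.4 and 2454.1 CPM in knockout males, below all wild-type males without being called (−1.37 ± 0.57, edgeR adjusted p = 0.100). It was at 299.9, 1794.8 and 931.0 CPM in tumours and at 289.0, 920.5 and 332.4 CPM in non-tumour liver.

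Omega-oxidation hydroxylates the far end of fatty acids. Cyp4a14 (ENSMUSG00000028715, chr4:115486200-115496142, minus strand) stood at 256.5, 232.1 and 189.3 CPM in tumours and 314.8, 296.1 and 455.2 CPM in non-tumour liver, against 1323.7 and 1439.1 CPM in wild-type females. In males it stood at 204.8, 209.4 and 248.4 CPM in knockout liver, against 2970.7, 2977.5 and 1478.9 CPM in wild-type liver. The highest knockout library of either sex was below the lowest wild-type library of the series. The log2 fold change was −2.61 ± 0.35 in tumours (edgeR adjusted p = 0.000835), −1.96 ± 0.35 in non-tumour liver (edgeR adjusted p = 0.0126) and −3.49 ± 0.35 in males (edgeR adjusted p = 3.67e-05). The calls in tumours and in males were kept under every alternative run, and that in non-tumour liver was lost without non-tumour 1 and without wild-type female 3.

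Cyp4a10, its neighbour on chromosome 4, stood at 340.5, 166.0 and 252.7 CPM in tumours and 363.3, 435.3 and 869.7 CPM in non-tumour liver, against 1045.5 and 605.9 CPM in wild-type females. Tumours lay below both other female groups, and non-tumour 3 lay within the wild-type range. Male Cyp4a10 levels were 474.6, 396.8 and 500.7 CPM in knockout liver, against 1478.3, 1777.3 and 962.1 CPM in wild-type liver. Cyp4a10 fell by 1.71 ± 0.43 in tumours (edgeR adjusted p = 0.0230) and by 1.62 ± 0.40 in knockout males (edgeR adjusted p = 0.0103), each on the log2 scale over wild type.

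The acyl-CoA thioesterases split acyl-CoA into the free acid and coenzyme A, Acot1 in the cytosol, Acot2 in mitochondria and Acot4 in peroxisomes. Acot4 (ENSMUSG00000052392, chr12:84038379-84048601, plus strand) stood at 38.3, 74.7 and 68.4 CPM in tumours and 46.4, 100.6 and 58.6 CPM in non-tumour liver, against 384.3 and 266.7 CPM in wild-type females. The wild-type females were the high libraries of the whole series. The log2 fold change was −2.43 ± 0.34 in tumours (edgeR adjusted p = 0.000955) and −2.25 ± 0.34 in non-tumour liver (edgeR adjusted p = 0.00507), and both calls were kept under every alternative run. In males it stood at 90.2, 91.1 and 100.5 CPM in knockout liver, against 116.6, 104.7 and 90.4 CPM in wild-type liver, with overlap (−0.14 ± 0.30, edgeR adjusted p = 0.772). Wild-type males lay below wild-type females by −1.65 ± 0.33 (edgeR adjusted p = 0.00345).

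Acot2 (ENSMUSG00000021226, chr12:83987861-83993873, plus strand) had the opposite layout. It stood at 14.1, 20.1 and 13.1 CPM in knockout males, against 133.6, 125.6 and 93.7 CPM in wild-type males, without overlap. Acot2 gave −2.90 ± 0.34 (edgeR adjusted p = 9.08e-05), and the call was kept under every alternative run. In females it stood at 18.9, 46.1 and 34.4 CPM in tumours and 22.1, 14.8 and 13.6 CPM in non-tumour liver, against 24.3 and 14.02 CPM in wild type, with overlap throughout. Wild-type males exceeded wild-type females by 2.62 ± 0.39 (edgeR adjusted p = 0.000483). Tumour over non-tumour liver gave 0.98 ± 0.32, the members' smallest unadjusted p in that comparison (0.00824), which did not pass adjustment (edgeR adjusted p = 0.665).

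Acot1 (chr12:84009490-84018371, plus strand) stood at 8.66, 8.89 and 3.09 CPM in tumours and 12.2, 5.28 and 15.9 CPM in non-tumour liver, against 63.0 and 35.7 CPM in wild-type females. Male livers had 7.07, 6.65 and 27.2 CPM in knockout liver, against 291.5, 281.9 and 78.4 CPM in wild-type liver. All knockout libraries lay below all wild-type libraries, with knockout male 3 nearest to them. Its log2 fold changes, −2.84 ± 0.74 in tumours (edgeR adjusted p = 0.0341), −2.14 ± 0.73 in non-tumour liver (edgeR adjusted p = 0.115) and −3.99 ± 0.73 in males (edgeR adjusted p = 0.00308) had larger SEs than those of Acot2 and Acot4. The tumour call was lost when any 1 of the 5 libraries compared was left out.

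**Figure D4:**
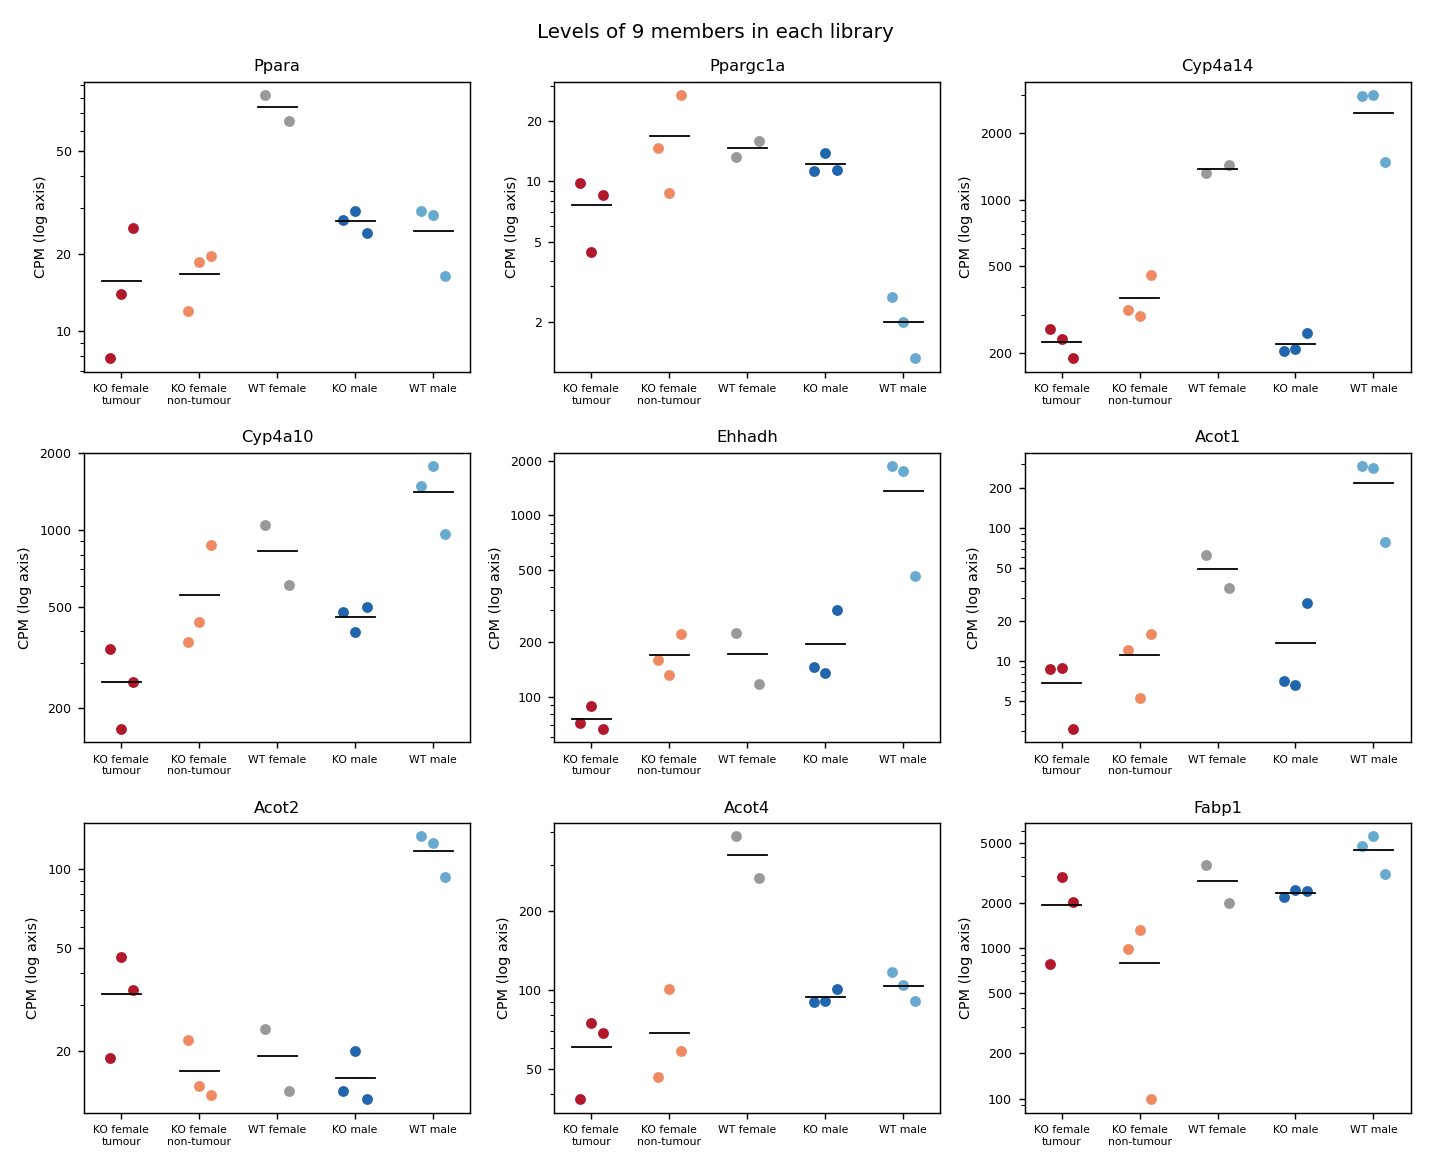
CPM (log axes) of 9 members in each library, by group (dots, 1 per library; bars, group means). Cyp4a14 and Acot1 lie lower in all knockout groups than in the wild type of the same sex, Ppara and Acot4 are high in wild-type females alone, and Ehhadh and Acot2 are high in wild-type males alone.

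Among genes of ketone bodies and fuel choice, Pdk4 stood at 22.8, 13.8 and 9.94 CPM in tumours and 33.6, 14.3 and 14.6 CPM in non-tumour liver, against 41.8 and 57.5 CPM in wild-type females. Both knockout groups lay below wild type, and Pdk4 fell by 1.68 ± 0.46 on the log2 scale in tumours (edgeR adjusted p = 0.0361). In non-tumour liver the value was −1.25 ± 0.46 (edgeR adjusted p = 0.133). Pdk4 stood at 38.3, 44.1 and 34.3 CPM in knockout males, against 78.4, 34.7 and 28.2 CPM in wild-type males, with overlap. Bdh1, which makes beta-hydroxybutyrate, was called in no comparison (−0.85 to 0.55 over the 7 comparisons).

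Angptl4, a secreted inhibitor of lipoprotein lipase, stood at 133.1, 127.6 and 224.9 CPM in knockout males, against 612.5, 505.9 and 399.2 CPM in wild-type males. Its log2 fold change was −1.64 ± 0.38 (edgeR adjusted p = 0.00794), without overlap. Wild-type males also exceeded wild-type females, at 128.2 and 145.5 CPM, by 1.89 ± 0.45 (edgeR adjusted p = 0.00830). In females Angptl4 overlapped between the groups, at 195.2, 97.8 and 123.0 CPM in tumours and 163.2, 57.5 and 137.0 CPM in non-tumour liver.

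The fatty acid transporter Cd36, the liver fatty acid binding protein Fabp1, the pantetheinase Vnn1 and the hormone gene Fgf21 were called in no comparison. Fabp1 was among the most uneven of them, at 990.1, 1315.8 and 98.6 CPM in non-tumour liver. Non-tumour 3 was the low library there, and it was also lowest for Fgf21, at 41.6, 10.03 and 2.85 CPM, and for Vnn1, at 24.97, 39.8 and 12.2 CPM in non-tumour 1, 2 and 3. Lipogenesis genes summed to 3193.9, 4829.7 and 1181.4 CPM in the same libraries, and the part of this library's state in the members' values was not tested. In males Vnn1 stood at 44.3, 39.0 and 69.2 CPM in knockout liver, against 299.4, 180.1 and 126.8 CPM in wild-type liver (−1.99 ± 0.70, edgeR adjusted p = 0.0633), and Fgf21 at 18.9, 52.3 and 12.3 CPM, against 70.8, 65.9 and 98.9 CPM (−1.50 ± 0.86, edgeR adjusted p = 0.247).

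Whether the knockout acted alike in both sexes was tested as an interaction, the effect in non-tumour females less that in males. Abcb11 itself was called in this test (−1.99 ± 0.49, edgeR adjusted p = 0.0181), as its transcript fell less in males. The part of that difference in the members' values was not tested. The interaction was called for 5 members: more negative in females for Ppara (−2.27 ± 0.51, edgeR adjusted p = 0.0117), Ppargc1a (−2.42 ± 0.59, edgeR adjusted p = 0.0181) and Acot4 (−2.10 ± 0.45, edgeR adjusted p = 0.00946), and more positive in females for Acot2 (2.71 ± 0.50, edgeR adjusted p = 0.00385) and Ehhadh (2.81 ± 0.72, edgeR adjusted p = 0.0229). These are 13.2% of the list, a share near the 10.9% of all genes called, 8.68% lower and 2.20% higher. Cyp4a14 was at 1.53 ± 0.48 (edgeR adjusted p = 0.0537). It was called with RLE and upper-quartile scaling, in DESeq2, in limma-voom and with mitochondrially encoded genes left out of the scaling. It was not called without the low-count filter, with the replicate block, in the fit of these groups alone or with the clock covariate. The median over the members was 0.25, beside −0.07 over all genes. With the clock score as a covariate 548 of all genes were called (1945 before). The members' count was then 2, Acot2 and Pdk4, while Ehhadh was at 2.99, Ppargc1a at −2.29, Acot4 at −1.55 and Ppara at −1.44. Without wild-type female 3 it was 2, Acot2 and Acot4, without non-tumour 1 it was 3, and without wild-type male 3 it was 8, which added Cpt2, Crat and Cyp4a14.

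Wild-type males differed from wild-type females in 12 members. Higher in males were Cpt2, Crat, Etfb, Ehhadh, Acaa1a, Acaa1b, Pex11a, Acot2 and Angptl4, and lower were Ppara, Ppargc1a and Acot4. These are 31.6% of the list, and of all genes 23.1% were called, 7.03% higher and 16.1% lower, with a median of −0.12 over all genes and 0.47 over the members. In 15 members all male libraries lay above both female ones and in 5 below, where 17.5% and 31.5% of all genes did. The count was 6 with the clock score as a covariate, 6 without wild-type female 2 and 4 without wild-type female 3, and Ppargc1a and Acot2 were called under every alternative run.

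Knockout males and non-tumour knockout females gave no call among the members with edgeR's test, where 0.392% of all genes were called, 0.207% higher and 0.185% lower. Beside 1732 of all 17874 genes, 8 of the 38 members had an unadjusted p under 0.05. The 3 smallest were those of Acaa1b (1.83 ± 0.58, edgeR adjusted p = 0.230), Pex11a (0.97 ± 0.34, edgeR adjusted p = 0.301) and Decr2 (0.73 ± 0.30, edgeR adjusted p = 0.415). DESeq2 called 1 member, Acaa1b, and limma-voom 2, Acaa1b and Pex11a. The members' median was 0.29, with 32 of 38 above 0, beside −0.01 over all genes. In 9 members knockout males lay above the non-tumour females and in 1, Cyp4a14, below, where 9.26% and 10.5% of all genes did.

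Tumours and non-tumour liver of knockout females gave no call among the members and 0% of all genes with edgeR's test. Beside 1217 of all 17874 genes, 8 of the 38 members had an unadjusted p under 0.05. DESeq2 and limma-voom called no member either, and edgeR without a low-count filter called 2, Fgf21 and Vnn1, both higher. In 4 members, Etfa, Ehhadh, Cyp4a10 and Cyp4a14, every tumour lay below every non-tumour library, and in none above, where 7.64% and 6.38% of all genes did. The median was −0.10 over the members, beside −0.01 over all genes.

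By replicate number, which may mark 1 animal, 9 members were lower and 3 higher in the tumour in all 3 numbers. Ehhadh differed by −1.16, −0.56 and −1.74 on the log2 scale in numbers 1, 2 and 3, and Ppargc1a by −0.58, −0.98 and −1.65. Etfa, whose groups did not overlap, differed by −0.54, −0.55 and −0.66. The secreted and binding genes depended on the number: Fgf21 differed by −0.19, 4.03 and 4.37, Fabp1 by −0.33, 1.17 and 4.37 and Vnn1 by −0.88, 1.59 and 3.05. Number 1 thus lay below 0 where numbers 2 and 3 lay above, and 31 of 38 members were lower in the tumour of number 1, against 14 in number 2 and 22 in number 3. These genes were singled out after their values were seen. The counts by number were not taken over all genes, so they cannot be read as particular to the members.

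**Figure D5:**
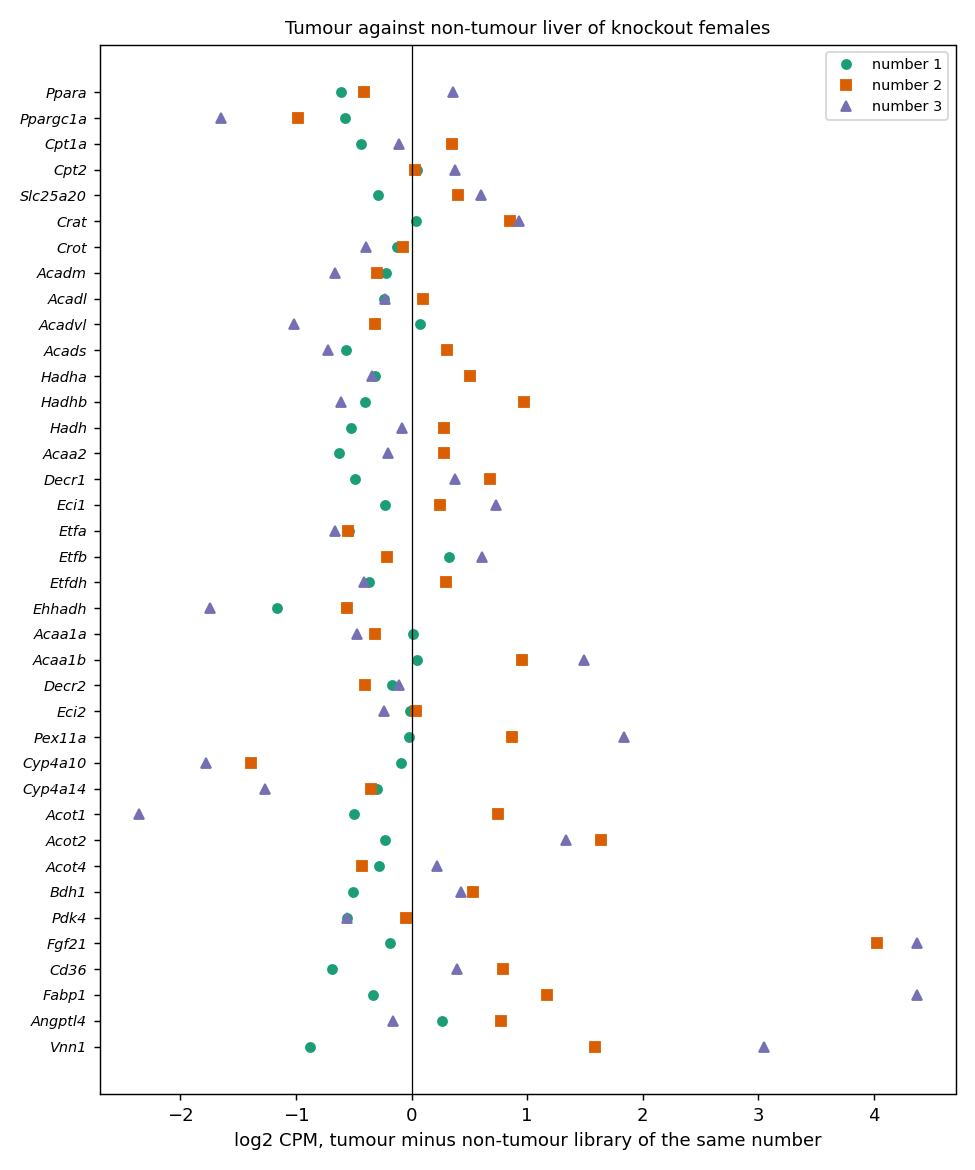
Log2 CPM of each member in the tumour minus the non-tumour library of the same replicate number (circle, square and triangle for numbers 1, 2 and 3). Fgf21 lies at −0.19, 4.03 and 4.37, and Ehhadh, Ppargc1a and Etfa lie below 0 in all 3.

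Between genes, levels were compared per kilobase of the gene model. Fabp1 had the highest level in every group, with 3479 ± 1964 CPM per kilobase in tumours and 1449 ± 1139.5 in non-tumour liver, against 5043 ± 2033 in wild-type females. In males it had 4219 ± 239 in knockout liver, against 8056 ± 2215 in wild-type liver (SD, n = 3, or 2 in wild-type females). Acaa1b came next in all groups but non-tumour liver, where Cyp4a10 had 263.7 ± 129.9 CPM per kilobase and Acaa1b 262.0 ± 179.8, a difference within their spread. Ppargc1a had the lowest level in every group, from 0.302 ± 0.102 in wild-type males to 2.54 ± 1.39 CPM per kilobase in non-tumour liver.

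Within groups the highest library exceeded the lowest by a median ratio of 1.53 in tumours, 1.79 in non-tumour liver, 1.37 in wild-type females, 1.55 in knockout males and 1.78 in wild-type males. The most uneven member was Vnn1 in tumours (ratio 8.87), Fgf21 in non-tumour liver (14.6) and in knockout males (4.26), Cd36 in wild-type females (4.68) and Ehhadh in wild-type males (4.03).

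Other genes of the pathway were taken from lists drawn up beside the members. Their counts stand beside the shares of all genes called, which were 3.94% higher and 5.67% lower in tumours, 1.90% higher and 2.26% lower in non-tumour liver and 14.3% higher and 6.32% lower in males, each over wild type. Of 28 further beta-oxidation and ketone body genes, 2 rose and 1 fell in non-tumour liver over wild-type females: Nudt19, a coenzyme A hydrolase (1.42 ± 0.31, edgeR adjusted p = 0.0245), Acad12 (2.15 ± 0.52, edgeR adjusted p = 0.0352) and Acot3, a peroxisomal thioesterase of the same family as Acot4, the 1 that fell (edgeR adjusted p = 0.0276). The same 3 were called in tumours over wild type, with Acot3 at −2.27 ± 0.45 (edgeR adjusted p = 0.00851). In males, where most genes called over the whole table were higher, 8 of the 28 rose and none fell, with Acad12 at 3.00 ± 0.46 (edgeR adjusted p = 0.000721) and Pecr, a peroxisomal reductase, at 2.25 ± 0.39 (edgeR adjusted p = 0.00142). The list's median was 0.45 in males, beside 0.11 over all genes and −0.56 over the 38 members. Of 9 further omega-oxidation genes, 1 rose and 1 fell in tumours, and 1 fell in non-tumour liver. In males 3 rose and 1 fell, with a median of 0.91, opposite in direction to Cyp4a10 and Cyp4a14. These 9 genes summed to 1951.6, 1634.0 and 2456.6 CPM in knockout males, against 1216.1, 1266.3 and 853.7 CPM in wild-type males.

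Acsl1, the main ligase that activates long chains and a known PPAR-alpha target, fell in tumours (−1.53 ± 0.34, edgeR adjusted p = 0.0131), in non-tumour liver (−1.69 ± 0.34, edgeR adjusted p = 0.0179) and in knockout males (−1.49 ± 0.31, edgeR adjusted p = 0.00438). Its list of 15 activation and carnitine supply genes had 1 higher and 3 lower in tumours, 0 and 2 in non-tumour liver, and 6 and 3 in males. Slc22a5, the carnitine importer, fell in non-tumour liver (−1.48 ± 0.29, edgeR adjusted p = 0.0170). Of 19 other PPAR-alpha targets none was called in non-tumour liver, 1 rose in tumours, and 2 rose and 4 fell in males, among them the rise of Acsf2, an acyl-CoA synthetase (1.24 ± 0.28, edgeR adjusted p = 0.00616), and the fall of Plin2, a lipid droplet coat protein (−2.37 ± 0.57, edgeR adjusted p = 0.00991).

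Of 24 partners and co-regulators, 1 rose and 2 fell in tumours, 1 rose and 1 fell in non-tumour liver, and 3 rose and 2 fell in males. Pparg, the receptor's adipose relative, rose in tumours (1.81 ± 0.34, edgeR adjusted p = 0.00604), in non-tumour liver (1.63 ± 0.34, edgeR adjusted p = 0.0211) and in knockout males (1.06 ± 0.29, edgeR adjusted p = 0.0186). Med1, a Mediator subunit that nuclear receptors contact, fell in tumours (−1.55 ± 0.24, edgeR adjusted p = 0.00199) and non-tumour liver (−0.95 ± 0.24, edgeR adjusted p = 0.0388) and rose in knockout males (0.84 ± 0.22, edgeR adjusted p = 0.0147). Of 15 peroxisome assembly genes 4 fell in tumours, 2 fell in non-tumour liver, and 6 rose and 1 fell in males, with Pex11g at 1.78 ± 0.26 in males (edgeR adjusted p = 0.000401).

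Genes of lists outside the pathway were called in the same comparisons. In males 6 of 16 lipogenesis genes and 6 of 8 evening clock genes rose and none fell, where 14.3% of all genes rose and 6.32% fell, with Acss2, which makes acetyl-CoA, at 2.80 ± 0.42 (edgeR adjusted p = 0.000545) and the clock gene Tef at 2.82 ± 0.48 (edgeR adjusted p = 0.00113). Macrophage markers (12 genes) summed to 366.5 to 517.1 CPM in tumours and 352.1 to 653.0 in non-tumour liver, against 142.1 to 167.3 in wild-type females, with 3 and 4 of the 12 called higher. Cholangiocyte markers (9 genes) summed to 702.8 to 1408.0 CPM in tumours and 460.7 to 597.1 in non-tumour liver, against 180.1 to 317.7 in wild-type females, with 3 and 0 of the 9 called higher. Stellate and fibroblast markers (9 genes, none called) summed to 292.9 to 771.7 CPM in tumours and 292.9 to 348.7 in non-tumour liver, against 183.9 to 251.6 in wild-type females. Endothelial markers (9 genes) summed to 232.3 to 338.8 CPM in tumours, above the 180.5 to 208.5 of wild-type females, and to 165.6 to 229.4 in non-tumour liver, which overlapped them. Of these 9 genes 2 were called higher in tumours and 0 in non-tumour liver.

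In males endothelial markers summed to 143.3 to 196.6 CPM in knockout liver, against 240.0 to 349.0 in wild-type liver, with 4 of the 9 called lower. Adipocyte markers (7 genes, 4 of them tested) summed to 85.5 to 170.5 CPM in knockout males, against 239.1 to 284.4 in wild-type males, and to 195.4 to 542.5 in tumours and 43.8 to 132.1 in non-tumour liver, against 61.6 to 89.9 in wild-type females. Of the 4 tested, 1 was called lower in knockout males, 2 higher in tumours and 1 higher in non-tumour liver. Plin4, a lipid droplet protein, gave most of the sum in each male library, Lep was at 0 in all groups, and Adipoq was at 0 in all groups but tumours. Macrophage, cholangiocyte, stellate and lymphocyte sums overlapped between knockout and wild-type males. Of the 12 macrophage markers 2 were called higher in knockout males, and of the 9 cholangiocyte markers 1 was called lower. Hepatocyte markers summed to 55857 to 91344 CPM in tumours and 55193 to 100082 in non-tumour liver, against 49115 to 55247 in wild-type females, so the 6 knockout libraries in which Ppara, Cyp4a14 and Acot4 fell overlapped the wild-type range only at its upper end. The part of these marker changes in the members' results was not tested.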

How the data were processed

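Per the submitters' processing notes, the authors used HISAT2 2.0.5 with the GRCm38 genome, and featureCounts 1.5.0-p3 for the count per gene; the strand setting and the handling of reads that fit several genes are not given in the sources used here. The deposited values used are the authors' whole-number counts, 1 column per library, without scaling. The deposited FPKM values were compared with the counts and not tested.

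Counts of all genes were filtered with filterByExpr (17874 of 54532 genes left), and library sizes and TMM factors were taken over the genes left. They were fitted once over the 14 libraries with edgeR 4.0.16 in R 4.3.3 (robust quasi-likelihood F test, 2-sided, common biological coefficient of variation 0.442). P-values were adjusted by Benjamini-Hochberg over all genes tested within each of 7 comparisons, with a threshold of 0.05. Log2 CPM used a prior count of 2 in the clock score and in the correlations by replicate number. The log2 CPM of the heatmap and of the tumour minus non-tumour differences had no prior count. Depth of 14745140 to 19480538 counts limits members with few counts most, such as Ppargc1a in wild-type males. P-values set each difference against a spread between libraries that was estimated over all groups together. The main fit treated the 14 libraries as independent, although tumour and non-tumour libraries of equal number may come from the same animal.

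A member was described in full if called in any comparison or among the 3 smallest unadjusted p of a comparison, and of other lists (209 of 211 symbols matched) up to 4 called genes with the smallest p were eligible. The members and lists were chosen with earlier results of these data known. Every result was recomputed with other scalings (RLE, upper-quartile), without the filter, in DESeq2 1.42.0, in limma-voom 3.58.1 with quality weights, on the 2 groups alone, with a block for the replicate number, and with 1 library left out at a time. A clock covariate and scaling without mitochondrially encoded genes were added after seeing the data. Over 8445 genes, deviations from the group means of same-numbered tumour and non-tumour libraries correlated at 0.489, 0.418 and 0.308. Those of unlike number lay between −0.419 and 0.0578. Libraries of different animals reached similar values, such as 0.439 for knockout male 3 with non-tumour 3 and 0.405 for knockout male 1 with non-tumour 2. The correlations thus cannot show that the numbers mark pairs, and the labels do not state it. Promoters are RefSeq's (GRCm38.p6) and coding stretches the longest open reading frames of GENCODE M21 transcripts. The count table gives 33 of 38 members the same coordinates as GENCODE M21.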

Additional observations from a re-analysis of the deposited data

Results flagged for a closer look

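For 5 members the knockout effect differed between females (non-tumour liver over wild type) and males by a test of the difference itself, edgeR's interaction term. These are 13.2% of the members, near the 10.9% of all genes called in the same test. The difference, females minus males on the log2 scale, was −2.27 for Ppara, −2.42 for Ppargc1a, −2.10 for Acot4, 2.71 for Acot2 and 2.81 for Ehhadh. The 5 members differ in which wild-type group stands apart. Ppara and Acot4 were highest in the 2 wild-type females, Ppargc1a was lowest in the 3 wild-type males, and Acot2 and Ehhadh were highest in the 3 wild-type males. Knockout males and non-tumour knockout females had no call between them in any of these 5 members. With the clock score as a covariate, where calls over all genes went from 1945 to 548, the difference passed for Acot2 among the 5. It stayed about as large for Ehhadh (2.99) and Ppargc1a (−2.29) and was smaller for Acot4 (−1.55) and Ppara (−1.44). Wild-type males had lower clock scores than all other libraries, so sex, genotype and clock phase cannot be told apart in that group.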

How the results depend on the processing

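No called member changed its sign under any alternative. Without a low-count filter the members called became 8 in non-tumour liver over wild-type females (4 before), 2 in tumours over non-tumour liver (0 before), 9 in the interaction (5 before) and 1 in knockout males over non-tumour females (0 before). Over all genes the calls without the filter were 1739, 338, 2815 and 700 in the same order (743, 0, 1945 and 70 before). These were out of 28842 genes with an adjusted p, against 17874 before. DESeq2 called 9 members in the interaction and 1 in knockout males over non-tumour females. Over all genes it called 3022 and 457, out of 18538 and 17473 genes with an adjusted p. Limma-voom called 8 members in non-tumour liver and 14 in tumours (8 before), both over wild-type females. It called 10 in the interaction and 2 in knockout males over non-tumour females. Over all genes its calls were 3397, 4599, 3333 and 710 in the same order. With the clock score as a covariate the calls over all genes went from 3688 to 372 in males. They went from 1945 to 548 in the interaction and from 4137 to 1822 between the wild types. The members called dropped with them, to 2 in males (15 before), 2 in the interaction and 6 between the wild types (12 before). The log2 fold changes behind the lost calls in males ran from −0.48 for Etfb, less than before, to −3.71 for Acot1, close to the −3.99 before. In males the covariate and the genotype do not overlap.

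Leaving out 1 library gave 1 to 3 members in non-tumour liver and 3 to 8 in tumours over wild-type females, 0 to 0 in tumours over non-tumour liver, 14 to 16 in males, 2 to 8 in the interaction, 4 to 15 in wild-type males over females and 0 to 0 in knockout males over non-tumour females. Where 1 wild-type female remained, it was assumed to vary like the other groups.

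With the replicate number as a block the counts were 5, 7 and 14 in non-tumour liver, tumours and males over wild type, 0 in tumours over non-tumour liver, 6 in the interaction, 11 in wild-type males over females and 0 in knockout males over non-tumour females. Same-numbered knockout and wild-type males correlated at −0.0323, −0.205 and −0.291, so no likeness by number was seen there. Relative to the fit without it, the block added Pdk4 in non-tumour liver over wild type and in the interaction, and ended the calls of Acot1 in tumours, Cpt1a in males and Acaa1a between the wild-type sexes.

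The median log2 fold change of all genes in males was 0.113 with TMM, 0.000 with RLE and 0.283 with limma-voom. In wild-type males over females it was −0.116, −0.011 and −0.351. Other scalings ended the call of Cpt1a in males, and scaling without mitochondrially encoded genes also that of Eci2 in non-tumour liver. Cpt1a lost its call in 13 of 15 alternatives, most of them not a change of scaling. Groups of 2 or 3 libraries and a biological coefficient of variation of 0.442 limit what can pass the threshold.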
